A study of Homo sapiens with 6 samples.

Results

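The FAM72 family consists of FAM72A, FAM72B, FAM72C and FAM72D, 4 near-identical protein-coding genes on human chromosome 1. They were taken by gene name from the deposited table of RNF5 knockdown in LP-1 cells, and all 4 were among its 1877 genes. As a family they were chosen by their abundance in the knockdown and control libraries of that table. The values were measured in 6 libraries of LP-1, an established human multiple myeloma line grown in RPMI-1640 with 15% FBS. In 3 libraries an shRNA had depleted RNF5, a ubiquitin ligase of the endoplasmic reticulum membrane, and in the other 3 the cells carried a non-target control. The labels do not say how many hairpins were used, when cells were harvested or whether libraries came from separate cultures, so p-values measure only the spread between these libraries.

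FAM72A encodes a small protein that binds the nuclear uracil DNA glycosylase UNG2 and promotes its degradation. In activated B cells this lowers the repair of uracils in DNA, and it is needed for efficient antibody class switching and somatic hypermutation. The family arose by recent duplication in the human lineage together with the adjacent SRGAP2 genes, and its transcripts are known to be most abundant in dividing cells. The roles of the FAM72B, FAM72C and FAM72D products are less well studied.

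The table held only genes selected by the authors for a change between these same libraries, with an adjusted p of at most 0.0499 and a log2 fold change of 1.0002 or more in size, both from their own test. The 4 genes are therefore described here with no p-value of their own for the knockdown against the control. Values per library are a normalized abundance whose scale no label or header names, and the sequencing depth is unknown. RNF5 itself lay between 81.35 and 95.40 in the knockdown libraries and between 1248 and 1649 in the control libraries, so the groups matched their labels. The identity of the line could be checked only on listed genes. Of 20 plasma cell and LP-1 genes, SDC1, ITGB7 and CD28 were listed, and they rose 2.94-fold, 4.87-fold and 3.20-fold in the knockdown (limma adjusted p = 3.94e-05, 2.50e-06 and 3.05e-05), in a table where 55.7% of all tested genes were called higher. No T cell, NK cell or myeloid marker of the 2 lists of 10 was listed, which gives no information on their levels. Of 11 fibroblast and packaging cell markers, SPARC was listed with 24.29, 23.66 and 7.70 in the controls and 0.20, 0.24 and 0 in the knockdowns, and COL1A1 was at or below 0.72 throughout. The part of such cells in the FAM72 values was not tested.

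The transcripts of the 4 genes differ at so few bases that most short reads cannot be assigned to a single one. By GENCODE release 29, the principal transcripts are 2398 bases long for FAM72A, 2396 for FAM72B, 2297 for FAM72C and 2397 for FAM72D, each with 4 exons and a coding part of 447 bases. FAM72C and FAM72D are the closest pair, with 4 differing bases over 2296 aligned bases (99.83% identical). FAM72B and FAM72D are the most distant pair, with 13 differing bases over 2393 (99.46% identical). Within the coding part, the number of differing bases runs from 1 between FAM72C and FAM72D to 6 between FAM72B and FAM72C.

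Only 6 of the 447 coding positions differ among the 4 genes. The stretches below hold 5 of these positions and are shown because a coding read can be told apart only where such a position lies within it. Positions are counted from 1 at the A of the start codon, the FAM72A base stands first in each change, and capitals mark the positions that differ among the genes. The stretch from position 261 to 301 reads as follows.
FAM72A: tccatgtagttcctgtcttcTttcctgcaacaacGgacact
FAM72B: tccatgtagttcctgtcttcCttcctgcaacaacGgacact
FAM72C: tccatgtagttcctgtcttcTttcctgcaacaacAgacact
FAM72D: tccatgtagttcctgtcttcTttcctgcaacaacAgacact

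The stretch from position 344 to 384 separates the genes in the same way.
FAM72A: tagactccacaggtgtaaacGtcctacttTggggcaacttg
FAM72B: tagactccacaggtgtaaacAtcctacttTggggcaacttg
FAM72C: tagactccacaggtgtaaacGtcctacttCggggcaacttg
FAM72D: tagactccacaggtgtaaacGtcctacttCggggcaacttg

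T281C and G364A set FAM72B apart from the other three, and G295A and T373C set FAM72C and FAM72D together apart from FAM72A and FAM72B. T6C is likewise shared by FAM72C and FAM72D. The only coding base that separates FAM72C from FAM72D is G245T, carried by FAM72C in the stretch from position 225 to 265.
FAM72C: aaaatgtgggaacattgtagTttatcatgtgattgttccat
FAM72D: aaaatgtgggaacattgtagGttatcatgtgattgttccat

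Of all windows of 50 bases along the principal transcript, 91.2% in FAM72A, 84.9% in FAM72B, 95.0% in FAM72C and 93.6% in FAM72D also occurred without a mismatch in a transcript of another member. At 150 bases these shares were 77.6%, 55.7%, 82.6% and 76.5%. FAM72B thus has the most sequence of its own and FAM72C the least at both window lengths. No 50-base window of any of the 4 was found, on either strand, in a GENCODE transcript of a gene outside the family. The submitters' processing notes name Bowtie 0.12.2 and hg19, and no source used here says how reads with several equally good places were handled. The value of a single paralog is therefore uncertain, while the sum over the 4 depends less on how their shared reads were divided, provided that none was discarded or counted more than once.

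**Figure D1:**
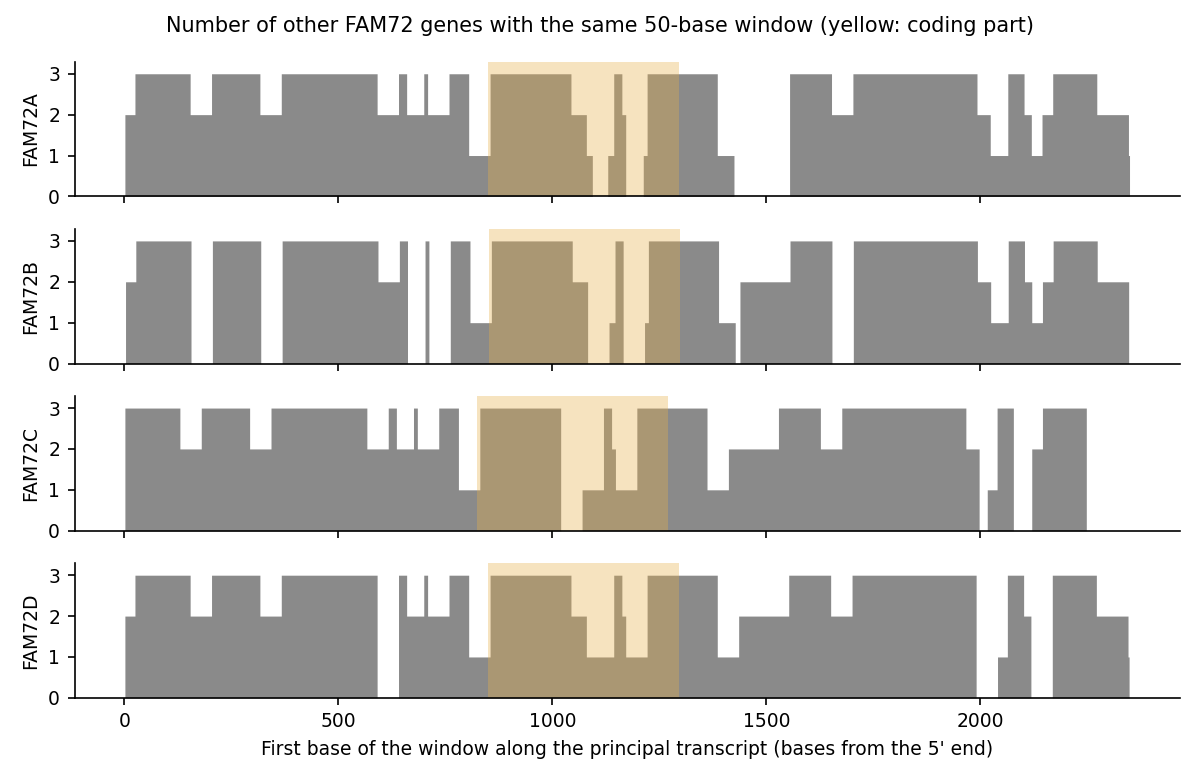
For each gene, the horizontal axis gives the first base of a 50-base window along the principal transcript in bases, and the height gives how many of the other 3 genes have the same window in a transcript. Yellow marks the coding part of 447 bases; height 0, where a window is found in that gene alone, covers 15.1% of windows in FAM72B and 5.0% in FAM72C.

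FAM72A, whose protein is the one known to act on UNG2, had the highest mean of the 4 in both groups. Control libraries 1, 2 and 3 held 55.78, 51.12 and 57.67 of it, and knockdown libraries 1, 2 and 3 held 23.92, 24.80 and 24.42. Every control library was above every knockdown library, and the lowest control was 2.06 times the highest knockdown. The mean went from 54.9 ± 3.37 to 24.4 ± 0.441 (SD, n = 3 per group), which left 44.4% of the control level and was the smallest proportional difference in the family.

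FAM72B is the member with the most sequence of its own, and its abundance was the lowest. It stood at 22.79, 21.16 and 23.91 in the control libraries and at 8.01, 8.44 and 8.50 in the knockdown libraries. The groups were again apart, and the mean was 22.6 ± 1.38 in the control and 8.32 ± 0.267 in the knockdown (36.8% of control).

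FAM72C had 48.92, 45.52 and 43.89 in the control libraries and 14.09, 14.80 and 15.06 in the knockdown libraries. The mean of 46.1 ± 2.57 in the control and 14.7 ± 0.502 in the knockdown left 31.8% of the control level. Control library 3 was the lowest of the controls for FAM72C, but the highest for the other three members.

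FAM72D, the closest relative of FAM72C, had 51.69, 45.30 and 54.98 in the control libraries and 13.44, 14.97 and 14.98 in the knockdown libraries. Its mean was 50.7 ± 4.92 in the control and 14.5 ± 0.886 in the knockdown, or 28.6% of control. This was the largest proportional difference in the family, and the spread of its control libraries was also the widest, with a coefficient of variation of 9.72% against 5.57% to 6.15% in the other three.

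The sum of the 4 genes was 179.18, 163.10 and 180.45 in the control libraries and 59.46, 63.01 and 62.96 in the knockdown libraries. Its mean went from 174 ± 9.67 to 61.8 ± 2.04, which was 2.82-fold lower in the knockdown. The lowest control sum was 2.59 times the highest knockdown sum. The sum had a coefficient of variation of 5.55% over the controls and 3.29% over the knockdowns, so the gap between the groups was far wider than the spread within either. In bulk libraries, fewer cells that express a gene and less RNA per cell cannot be told apart.

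All 4 members had every knockdown library below every control library, against 45.5% of the 1877 genes of the table. Since the authors chose the table on this comparison, nothing is read from that count. A fit with limma covered the 1290 genes that reached a value of 1 in at least 3 libraries. It called 42% of them lower and 55.7% higher at a Benjamini-Hochberg adjusted p under 0.05. All these genes had been chosen on this comparison, so the limma p-values printed for genes outside the family are no independent evidence. The 4 members were part of this fit, and its p-values for them are not used.

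**Figure D2:**
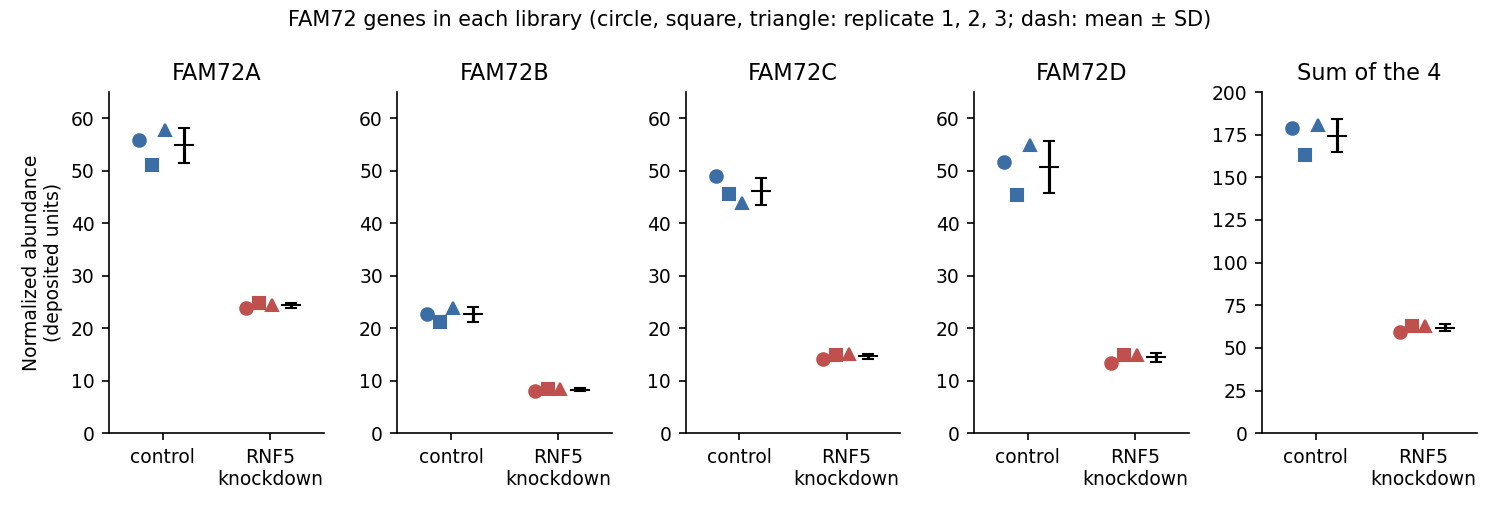
The vertical axes give the normalized abundance in the deposited units for each FAM72 gene and for their sum, with 1 point per library, control in blue and RNF5 knockdown in red; the sum has its own scale. Dashes with bars are the mean ± SD of 3 libraries. In every panel the 3 control points lie above the 3 knockdown points, and the sum lies between 163.10 and 180.45 in the control and between 59.46 and 63.01 in the knockdown.

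On the scale of log2(value + 1), the difference of knockdown minus control was -1.14 (SE 0.0529) for FAM72A, -1.34 (SE 0.0547) for FAM72B, -1.59 (SE 0.0524) for FAM72C and -1.74 (SE 0.0943) for FAM72D. For the sum it was -1.48 (SE 0.0541). The differences are thus graded, smallest in FAM72A and largest in FAM72D, and on this scale that of FAM72B, the least abundant, is understated. The sum without FAM72A differed by -1.65. The median difference over all 1290 genes fitted was 0.73, because most of those genes were higher in the knockdown.

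The authors' deposited table gives log2 fold changes of -1.49 for FAM72A, -1.67 for FAM72B, -1.79 for FAM72C and -2.01 for FAM72D. Their order is the same as that from the library values, but each lies lower than the log2 ratio of the library means, by 0.322 for FAM72A, 0.229 for FAM72B, 0.139 for FAM72C and 0.205 for FAM72D. The median of this offset was 0.173 over the 431 genes with both means of at least 5, with quartiles of 0.111 and 0.220. FAM72A and FAM72B thus lay above the upper quartile and FAM72C and FAM72D between the quartiles. The range from FAM72A to FAM72D was therefore narrower in the authors' fold changes than in the library values. By the size of the authors' log2 fold change the 4 ranked between 385 and 550 of the 953 genes that the authors listed as lower. Larger falls were thus listed for many other genes. Among the 1290 genes fitted, on the scale of log2(value + 1), FAM72D ranked 38 from the lowest difference, FAM72C 50, FAM72B 89 and FAM72A 149. That scale shrinks the differences of genes with low values.

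Because the principal transcripts are nearly equal in length, levels could be set side by side, here per length. No label says whether the values were already divided by length. If they were, length was divided out a second time here. The order of the means in each group was the same without this division. Per 1000 bases of transcript the control means were 22.9 for FAM72A, 21.1 for FAM72D, 20.1 for FAM72C and 9.44 for FAM72B. The control libraries of FAM72A and FAM72D overlapped, as did those of FAM72D and FAM72C. Before division by length, the lowest control of FAM72A (51.12) lay just above the highest of FAM72C (48.92). Only FAM72B stood apart from all the others. In the knockdown the means per 1000 bases were 10.2 for FAM72A, 6.38 for FAM72C, 6.03 for FAM72D and 3.47 for FAM72B. Here FAM72A stood above the others and FAM72B below, while FAM72C and FAM72D overlapped. All these levels rest on how shared reads were divided.

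The make-up of the sum differed between the groups. FAM72A made up 31.1%, 31.3% and 32.0% of the sum in the control libraries and 40.2%, 39.4% and 38.8% in the knockdown libraries. Its mean share was 31.5% ± 0.430 in the control and 39.5% ± 0.726 in the knockdown, 7.98 percentage points higher. FAM72D made up 29.03% ± 1.36 in the control and 23.4% ± 0.677 in the knockdown, a difference of -5.65 points, and its groups did not overlap.

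The share of FAM72B moved least, from 13.0% ± 0.266 in the control to 13.5% ± 0.0547 in the knockdown, although every knockdown library was above every control library. FAM72C made up 27.3%, 27.9% and 24.3% of the sum in control libraries 1, 2 and 3 and between 23.5% and 23.9% in the knockdown libraries. The share of FAM72C in control library 3 thus came close to the knockdown range without entering it, whereas that of FAM72D was highest in the same library, at 30.5%. The ratio of FAM72D to FAM72C was 1.06, 0.995 and 1.25 in the control libraries and 0.954, 1.01 and 0.995 in the knockdown libraries. For this closest pair, then, the 2 values ran nearly level in every library but control library 3. The ratio of FAM72A to FAM72D was 1.09 ± 0.0402 in the control and 1.69 ± 0.0798 in the knockdown, with no overlap. Whether these shares follow transcript levels or the assignment of shared reads was not tested.

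**Figure D3:**
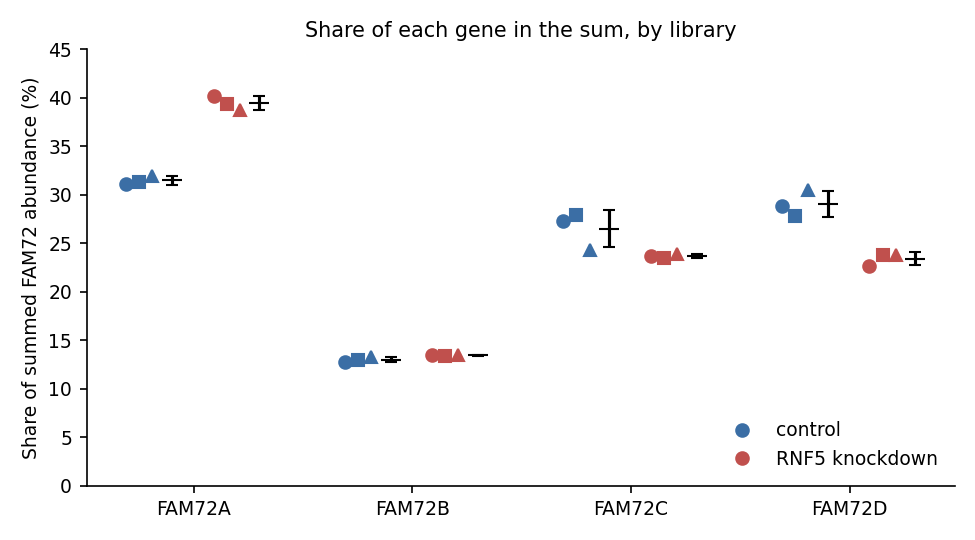
The vertical axis gives the share of each gene in the summed FAM72 abundance in percent, with 1 point per library (circle, square and triangle for replicates 1, 2 and 3; control in blue, RNF5 knockdown in red) and the mean ± SD of 3 libraries as dashes. FAM72A lies near 31.5% in the control and 39.5% in the knockdown, FAM72D moves the other way, and FAM72B moves least, from 13.0% to 13.5%.

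Promoter sequence from the RefSeq table of build GRCh38.p14 was matched for 3 of the 4 members, FAM72A, FAM72C and FAM72D, and not for FAM72B. It is shown because the members were lower together, and whether it bears on their levels was not tested. The table gives 9 windows for these genes, each from 250 bases before to 50 after an annotated start. In 3 of them, 1 for each gene, the same stretch of 194 bases is found, and these 3 were picked for it. The stretch lies at chr1:206202892-206203085 on the minus strand for FAM72A, at chr1:143972008-143972201 on the minus strand for FAM72C and at chr1:145095788-145095981 on the plus strand for FAM72D. It ends 52 bases before the annotated start of that window in FAM72A and 21 bases before it in FAM72C, and runs just past it in FAM72D. Capitals mark matches to CCAAT, the box bound by NF-Y, and to TTTGAA, a form of the cell cycle homology region found in many promoters of genes of late cell cycle, here read on the other strand as TTCAAA.
FAM72A: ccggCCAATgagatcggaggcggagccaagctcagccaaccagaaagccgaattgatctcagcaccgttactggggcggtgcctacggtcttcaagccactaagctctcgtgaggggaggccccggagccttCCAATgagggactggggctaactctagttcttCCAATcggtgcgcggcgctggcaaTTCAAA
FAM72C: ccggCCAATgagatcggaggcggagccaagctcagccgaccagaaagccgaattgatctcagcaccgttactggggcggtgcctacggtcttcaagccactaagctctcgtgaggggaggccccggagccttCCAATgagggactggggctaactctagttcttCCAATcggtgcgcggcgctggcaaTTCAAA
FAM72D: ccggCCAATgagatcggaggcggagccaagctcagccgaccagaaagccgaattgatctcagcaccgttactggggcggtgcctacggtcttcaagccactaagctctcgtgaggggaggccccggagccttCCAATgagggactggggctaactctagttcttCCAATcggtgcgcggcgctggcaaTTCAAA

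FAM72C and FAM72D are identical over the stretch, and FAM72A differs from them by G38A, counted from the first base shown with the FAM72C base first. On either strand, at least 3 matches to CCAAT occurred in 3.26% of the 35116 windows of 300 bases in the table and at least 1 match to TTTGAA in 15.2%. Both together occurred in 0.518%. The 3 windows are copies of a duplicated sequence and were picked for the stretch, so nothing is read from these shares. TTCGAA, TTTCCCGC, TTTGGCGC and GGCGGG, also searched on both strands, had no match in these 3 windows. They were found in 1.45%, 1.63%, 0.652% and 45% of all windows. In the other 6 windows CCAAT had between 0 and 2 matches, GGCGGG had up to 3, and TTTGAA was found in 1, a FAM72A window that also held TTCGAA. A match is a description of the letters and shows no binding.

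Each FAM72 gene lies head to head with a gene or pseudogene of the SRGAP2 family, known for its part in neuronal migration. In GENCODE release 29 the nearest start on the opposite strand belongs to SRGAP2 for FAM72A, SRGAP2C for FAM72B, SRGAP2D for FAM72C and SRGAP2B for FAM72D. Of the 5 SRGAP2 genes looked for, only SRGAP2B, the neighbour of FAM72D, was in the table. It had 20.91, 18.27 and 15.00 in the control libraries and 8.26, 9.10 and 10.23 in the knockdown libraries. It fell 1.96-fold, from 18.1 ± 2.96 to 9.20 ± 0.989 (log2 difference -0.90, limma adjusted p = 0.000901), beside the 3.50-fold difference of FAM72D. The contrast between these 2 genes was not tested, and in a table chosen on this comparison the p-value is no independent evidence. Control library 3 was the lowest control for SRGAP2B and the highest for FAM72D, while knockdown library 1 was the lowest knockdown for both. Reads of SRGAP2B are also shared with its paralogs, and levels of the unlisted neighbours are not known here. None of 60 other genes of families duplicated in the human lineage was listed, which gives no information on their levels.

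The pathway in which FAM72A is best known was also looked up. Of 34 genes of uracil repair, class switching and the CTLH ubiquitin ligase, 1 was listed, and UNG was not. The share of all measured genes that was listed is not known here, so nothing is read from this count. Levels of the unlisted genes are not known either. The listed gene was RANBP9, a scaffold subunit of the CTLH complex. RANBP9 stood at 88.04, 78.78 and 57.52 in the control libraries and at 34.92, 41.32 and 41.97 in the knockdown libraries. It fell from 74.8 ± 15.6 to 39.4 ± 3.90 (log2 difference -0.89, limma adjusted p = 0.000930). The table was chosen on this comparison, so this p-value is no independent evidence.

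Genes of G2/M and mitosis were looked up in a list chosen with earlier results of these data known. Of 50 genes in the list, 14 were in the table, all 14 fell by limma and none rose, against 42% of all tested genes called lower. The authors chose the table on these libraries, and the share of all measured genes that was listed is not known here. Neither the number listed nor the number that fell is thus independent evidence. The median log2 difference of the 14 was -1.05, with a range from -1.51 to -0.72. It was -1.46 for the 4 FAM72 genes and 0.73 for all genes tested. FAM72C and FAM72D lay below all 14, and 8 of the 14 had a smaller difference than any FAM72 gene.

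Among the 4 most abundant listed members, CKS1B, a subunit of cyclin-dependent kinases, fell 1.91-fold from 760 ± 154 to 399 ± 4.99 (log2 difference -0.91, limma adjusted p = 0.000274). UBE2C, the E2 enzyme that works with the anaphase-promoting complex, fell 2.73-fold from 378 ± 26.3 to 138 ± 0.463 (log2 difference -1.44, limma adjusted p = 7.20e-06). CKS2, the paralog of CKS1B, fell 2.75-fold from 238 ± 82.0 to 86.4 ± 1.21. Its control library 3 was the highest control, at 331.57 against 199.6 and 181.36. The mitotic kinase PLK1 fell 2.10-fold from 209 ± 53.8 to 99.2 ± 1.42. Its control library 3 was the lowest control, at 146.41 against 239.32 and 239.92. CDC20, an activator of the anaphase-promoting complex and named because it was the one member below the FAM72 sum, fell 2.90-fold from 181 ± 31.8 to 62.4 ± 2.14.

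Of 40 genes of G1/S and DNA replication, 2 were listed and both rose by limma, against 55.7% of all tested genes called higher. CCNE1, which encodes cyclin E1, rose from 1.81 ± 0.344 to 3.85 ± 0.739 (limma adjusted p = 0.00237). UHRF1, which recruits DNA methylation to replicated DNA, rose from 5.24 ± 1.98 to 15.6 ± 0.131 (limma adjusted p = 0.000185). These 2 thus went the opposite way to the FAM72 genes and the listed G2/M genes. The table was chosen on this comparison, and levels of the unlisted G1/S genes are not known here. CCNE1 was low in both groups.

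**Figure D4:**
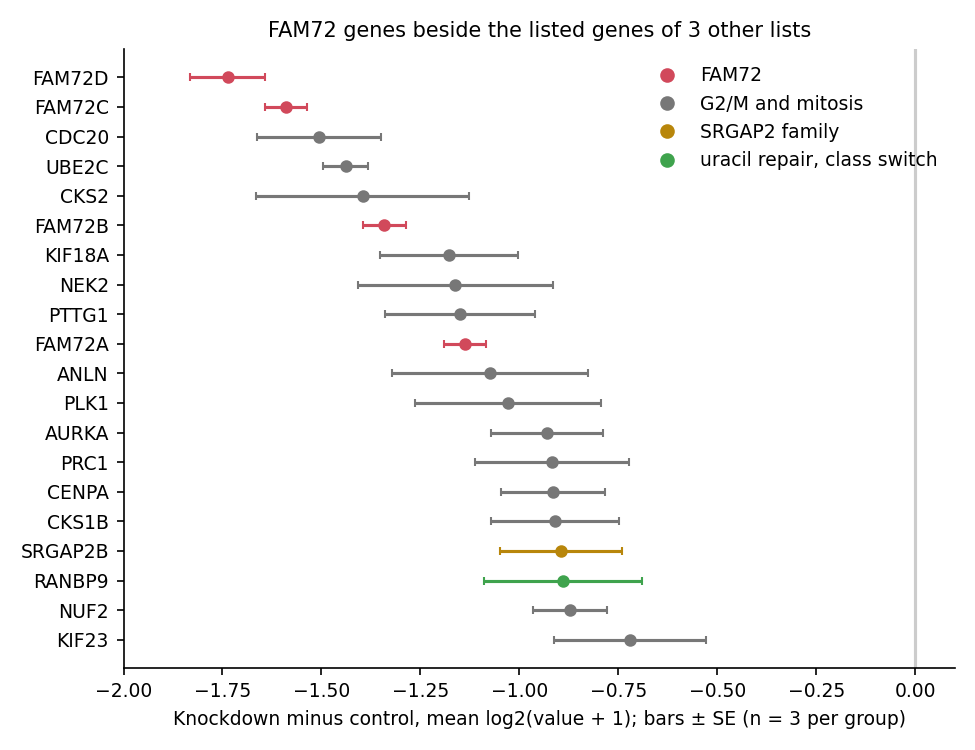
The horizontal axis gives the knockdown minus control difference of mean log2(value + 1) with its SE (n = 3 per group) for the FAM72 genes (red), the 14 listed G2/M genes (grey), SRGAP2B (ochre) and RANBP9 (green). FAM72D and FAM72C lie farthest left, at -1.74 and -1.59, and FAM72A at -1.14 lies within the range of the G2/M genes.

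In the control group, the order of the libraries in FAM72A, FAM72B and FAM72D was unlike that in most of the table. Control library 3 was the lowest control in 428 of the 598 genes with a mean of at least 5. In the G2/M list it was lowest in 8 of 14 genes and highest in 4, namely CKS1B, CKS2, PTTG1 and UBE2C. FAM72A, FAM72B and FAM72D were highest there, at 1.08, 1.09 and 1.13 times the mean of control libraries 1 and 2, and FAM72C was lowest, as in most of the table, at 0.929 times. Knockdown library 1 was lowest in its group for all 4 FAM72 genes, as in 333 of the 598 genes and in 11 of the 14 G2/M genes. Leaving out control library 3 or any other library kept the difference of the sum between -1.53 and -1.45.

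Of the 1286 other genes fitted, UBE2C had the profile over the 6 libraries nearest to that of the FAM72 sum, with a root-mean-square distance of 0.0686 between log2(value + 1) profiles centred on their own means. Its values were 357.8, 367.49 and 407.39 in the control libraries and 138.91, 138.00 and 138.31 in the knockdown libraries. Next came GUCA1B, an activator of retinal guanylate cyclase (0.0865), the cytokine gene TSLP (0.0884), TOX3, of the high mobility group box proteins (0.0897), and CACYBP, which binds calcyclin (0.0911). GUCA1B and TSLP had control means of only 4.40 ± 0.705 and 6.40 ± 0.915, and TOX3 was listed at 0 in all knockdown libraries, so on this scale their low values set the likeness. CACYBP, like UBE2C, was abundant, with a control mean of 532 ± 34.3 and a knockdown mean of 203 ± 0.610. The distance is dominated by the step between the groups, and the table was chosen for that step.

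Among themselves, on the scale of log2(value + 1), FAM72A and FAM72B had the closest profiles, at a distance of 0.103, followed by FAM72C and FAM72D at 0.125. The added 1 shrinks the profile of FAM72B, the least abundant, so this order depends on the scale. Without it, the log2 ratios of the group means were -1.17, -1.44, -1.65 and -1.81 for FAM72A to FAM72D. By these ratios FAM72C and FAM72D lay closest. On the scale of log2(value + 1), FAM72A and FAM72D had the profiles farthest apart, at a distance of 0.304. In sequence, FAM72C and FAM72D were the closest pair, with 4 differing bases, followed by FAM72A and FAM72C with 7 and FAM72A and FAM72B with 8. FAM72A and FAM72C, although as close in sequence as FAM72A and FAM72B to within 1 base, had a distance of 0.238. In the coding part alone, FAM72A differs at 2 bases from FAM72B and at 4 from FAM72C.

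**Figure D5:**
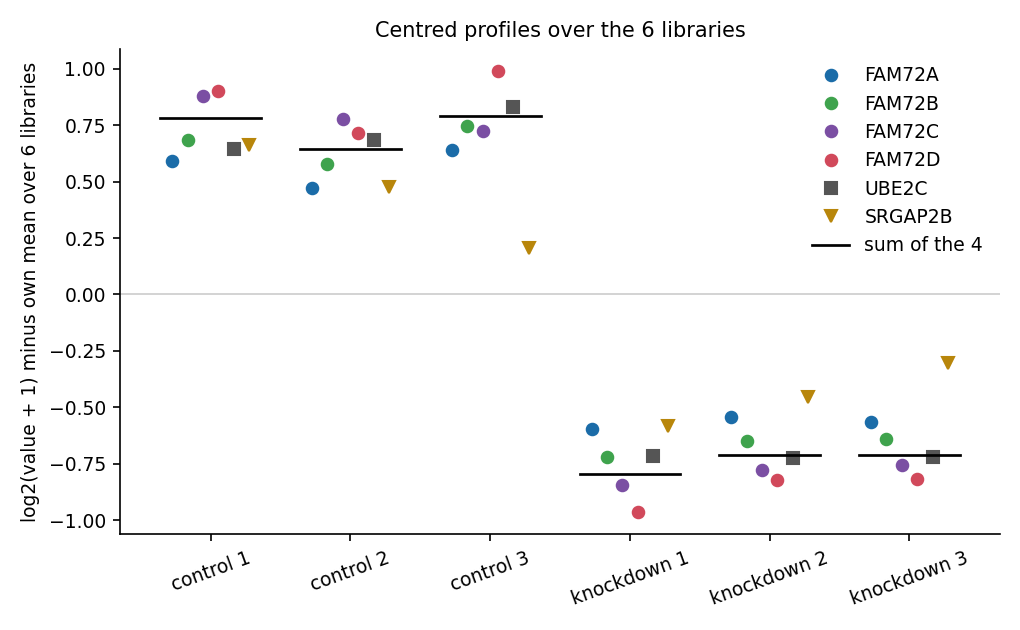
Each point is a gene's log2(value + 1) in 1 library minus its own mean over the 6 libraries, and black lines give the sum of the 4 FAM72 genes. UBE2C (squares) follows the sum with a root-mean-square distance of 0.0686, the 4 genes are spread in the same order in every knockdown library, from FAM72A down to FAM72D, and SRGAP2B (triangles) is lowest of its controls in control 3.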

How the data were processed

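Per the file headers, the authors deposited a normalized signal per gene in each of 6 libraries, their group means, a fold ratio (knockdown over control), the log2 of that ratio, and raw and adjusted p-values. The submitters' processing notes name Bowtie 0.12.2 and hg19 without a step. The values are not counts, so the planned count-based tests were replaced by limma-trend (limma 3.58.1, R 4.3.3) on log2(value + 1), fitted to the 1290 of 1877 genes that reached 1 in at least 3 libraries, with Benjamini-Hochberg adjustment. The fit was tested on simulated data in which most genes were unchanged. It therefore does not show how the fit behaves on a table of genes selected for a change. The members and gene lists were chosen with earlier results of these data known. The FAM72 genes were part of that fit, but no p-value of theirs is reported, and their sum is the sum of the 4 values. Transcripts came from GENCODE release 29, whose identifiers matched all 4 genes, and promoters from RefSeq (GRCh38.p14), so no coordinate is in hg19. Transcripts were aligned with Biopython 1.88. Genes named were the FAM72 members, RNF5, the listed SRGAP2 and uracil repair genes, up to 4 members of each other list by mean, and the 5 nearest profiles. CDC20 was named in addition for its log2 difference, and PTTG1 for its order of control libraries. Alternatives were the pseudocount, the filter, each library left out, a replicate block, no variance trend, the median offset and, added after seeing the data, a length trend and a sum without FAM72A.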

Additional observations from a re-analysis of the deposited data

How the results depend on the processing

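All 4 FAM72 genes and their sum kept a negative difference under the alternatives given here for them (each library left out, other pseudocounts, the offset and the length trend). With each library left out, the log2 difference ranged from -1.19 to -1.10 for FAM72A, -1.39 to -1.30 for FAM72B, -1.62 to -1.55 for FAM72C, -1.81 to -1.68 for FAM72D and -1.53 to -1.45 for the sum. After dividing knockdown values by the median offset to the authors' ratios, the differences were -1.30, -1.49, -1.75 and -1.90 for FAM72A to FAM72D and -1.65 for the sum, lower by construction. With a trend on transcript length removed, FAM72A, FAM72B and FAM72C were at -1.23, -1.43 and -1.67 and the sum at -1.57. The sum without FAM72A was at -1.65, and a pseudocount of 0.1 moved FAM72B to -1.43. Deviations of same-numbered libraries showed no positive correlation across genes (-0.165, -0.0711 and -0.0823). The labels do not say whether libraries were paired, and with so few libraries these values cannot exclude it. With the replicate block all 14 G2/M genes still fell. Over all genes, 542 were called lower and 718 higher; with a mean of at least 5 the fit held fewer genes and called 277 lower and 314 higher, and with no filter it held more and called 882 lower. Without 1 library the calls ranged from 415 to 527 lower and from 555 to 716 higher. G2/M calls stayed at 14, SRGAP2B and RANBP9 at 1 each and plasma cell genes at 3, while 1 of the 2 G1/S genes was left with a mean of at least 5. The edgeR and DESeq2 alternatives were not run, since the values are not counts. Unknown depth gives no counting error, and the single paralogs rest on an unstated treatment of shared reads.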
